A study of Mus musculus with 20 samples.

Results

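The acute phase reactants described here are serum amyloid A (Saa1, Saa2 and Saa3), the pentraxin Apcs, the orosomucoids Orm1 and Orm2, haptoglobin (Hp) and lipocalin 2 (Lcn2), together with the chemokine Cxcl1. Every array probe annotated with 1 of these 9 symbols was taken, which gave 12 of the 45281 probes of the array and 9 of 19057 named genes. Of these, 10 of the 12 probes and 8 of the 9 genes passed the filter on dim probes (detection p under 0.05 in at least 5 of 20 arrays), as did 15096 of all 45281 probes. The 9 genes were chosen by their measured intensities, since single livers of the group labelled probucol stood apart in them. Differences of the members in comparisons that hold those livers are therefore given as description, with no test. Tests in such comparisons are given for other genes alone.

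Liver RNA of 20 female mice was hybridised one mouse to an array on Illumina Mouse WG-6 v2 BeadChips, with 5 biological replicates in each of 4 groups. The first 3 groups were B6.Pdss2(kd/kd) mice, homozygous in every tissue for a missense allele of Pdss2, an enzyme of coenzyme Q synthesis, at the 13th generation of backcrossing a recombinant chromosome to B6. The probucol-labelled mutants (140 to 145 days old) had 1% (w/w) probucol in their chow, an estimated 95 mg per kg per day. Untreated mutants (129 to 143 days) had the standard chow. CoQ10-labelled mutants (153 to 156 days) received coenzyme Q10 at 1 mg per ml, an estimated 400 mg per kg per day. The fourth group was wild-type B6 mice on standard chow, aged 215 to 217 days, so genotype and age cannot be told apart in any comparison with wild type. Urine albumin was 0.84 to 1.86 mg per 24 h in the probucol-labelled mice, 13.52 to 57.34 in untreated mutants and 0.14 to 0.2 in wild type, per the labels, and was not given for CoQ10.

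For 10 of the 20 livers the labels disagree. Livers whose treatment field says probucol have an array name that starts with the prefix of the untreated group, and those whose field says untreated have the prefix of the probucol group. The treatment field was kept, and each statement on either of these groups holds for livers as labelled there. Between 12268 and 15003 probes were detected per array, and the median intensity was 195.7 to 271.5. Of 10 hepatocyte markers 9 were detected in at least 5 livers, and Tat in 0 of 20, and the kidney markers Umod, Nphs1 and Slc12a1 were detected in 0 of 20. As whole liver was measured, fewer cells of a type and less RNA per cell cannot be told apart.

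In the acute phase response, interleukin 6 and interleukin 1 released during infection or injury act on hepatocytes through the transcription factors STAT3, C/EBP and NF-kappaB. Serum amyloid A and, in the mouse, Apcs are among the plasma proteins that rise most. Haptoglobin binds free haemoglobin, the orosomucoids carry lipids and basic drugs, Lcn2 withholds iron by binding bacterial siderophores, and Cxcl1 attracts neutrophils through the receptor CXCR2.

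The 250 bases before the start of a gene were available from RefSeq (GRCm38.p6) for 7 of the 9 members, Hp and Orm1 being without an entry in the table used. Shown are those of Saa1 and Saa2, which are nearly the same sequence, and those of Lcn2 and Cxcl1, the genes whose levels, beside Saa1, ranged most between livers. Capitals mark matches, on either strand, to the NF-kappaB pattern, which is GGG and CC with any 5 bases between them, or to the C/EBP letters TTNNGNAA.
Saa1 (chr7:46742981-46743230, minus strand): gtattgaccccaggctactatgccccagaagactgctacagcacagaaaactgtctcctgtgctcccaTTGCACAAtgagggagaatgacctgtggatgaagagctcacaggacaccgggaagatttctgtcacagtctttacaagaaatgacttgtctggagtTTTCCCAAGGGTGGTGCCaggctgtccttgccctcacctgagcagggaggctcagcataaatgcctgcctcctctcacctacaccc
Saa2 (chr7:46751583-46751832, plus strand): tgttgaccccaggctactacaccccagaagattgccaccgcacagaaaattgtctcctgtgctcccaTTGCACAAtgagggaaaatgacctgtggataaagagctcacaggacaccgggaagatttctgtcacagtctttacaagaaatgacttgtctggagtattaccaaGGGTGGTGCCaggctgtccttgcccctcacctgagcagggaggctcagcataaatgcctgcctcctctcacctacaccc
Lcn2 (chr2:32387740-32387989, minus strand): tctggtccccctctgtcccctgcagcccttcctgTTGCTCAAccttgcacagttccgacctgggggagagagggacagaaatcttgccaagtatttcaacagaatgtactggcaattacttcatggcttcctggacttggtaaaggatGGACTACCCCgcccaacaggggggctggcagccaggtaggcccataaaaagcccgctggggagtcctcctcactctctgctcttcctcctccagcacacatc
Cxcl1 (chr5:90890995-90891244, plus strand): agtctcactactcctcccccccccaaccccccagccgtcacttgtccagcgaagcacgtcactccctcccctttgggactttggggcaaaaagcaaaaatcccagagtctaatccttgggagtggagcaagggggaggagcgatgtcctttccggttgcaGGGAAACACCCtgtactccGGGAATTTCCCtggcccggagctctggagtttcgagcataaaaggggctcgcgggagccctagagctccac
The Saa1 and Saa2 promoters are identical at 238 of 251 aligned positions (94.8%), while the other pairs of the 7 promoters share 46.3% to 54.5%. Saa1 has 1 NF-kappaB match, 78 to 69 bases before the start, which follows directly on a C/EBP match at 86 to 79. In Saa2 the NF-kappaB match lies at 79 to 70, and the adjoining C/EBP letters are absent. Both genes hold a further C/EBP match, at 182 to 175 bases before the start of Saa1 and 183 to 176 before that of Saa2. Lcn2 has 1 match to each set of letters, and Cxcl1 has 4 NF-kappaB matches in 2 stretches, each stretch holding overlapping matches on opposite strands. Among all 32851 promoters of this length 45.8% hold the NF-kappaB pattern and 36.8% the C/EBP letters, so a match alone sets none of these genes apart. Of the promoters not shown, Saa3 has 4 C/EBP matches, Orm2 has 3, of which 2 are both strands of 1 stretch, and Apcs has 1 match to the STAT letters TTCNNNGAA, which 7.02% of promoters hold. On chromosome 7 the genes Saa3, Saa4, Saa1 and Saa2 are neighbours, and on chromosome 4 Orm1, Orm3 and Orm2 are.

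**Figure D1:**
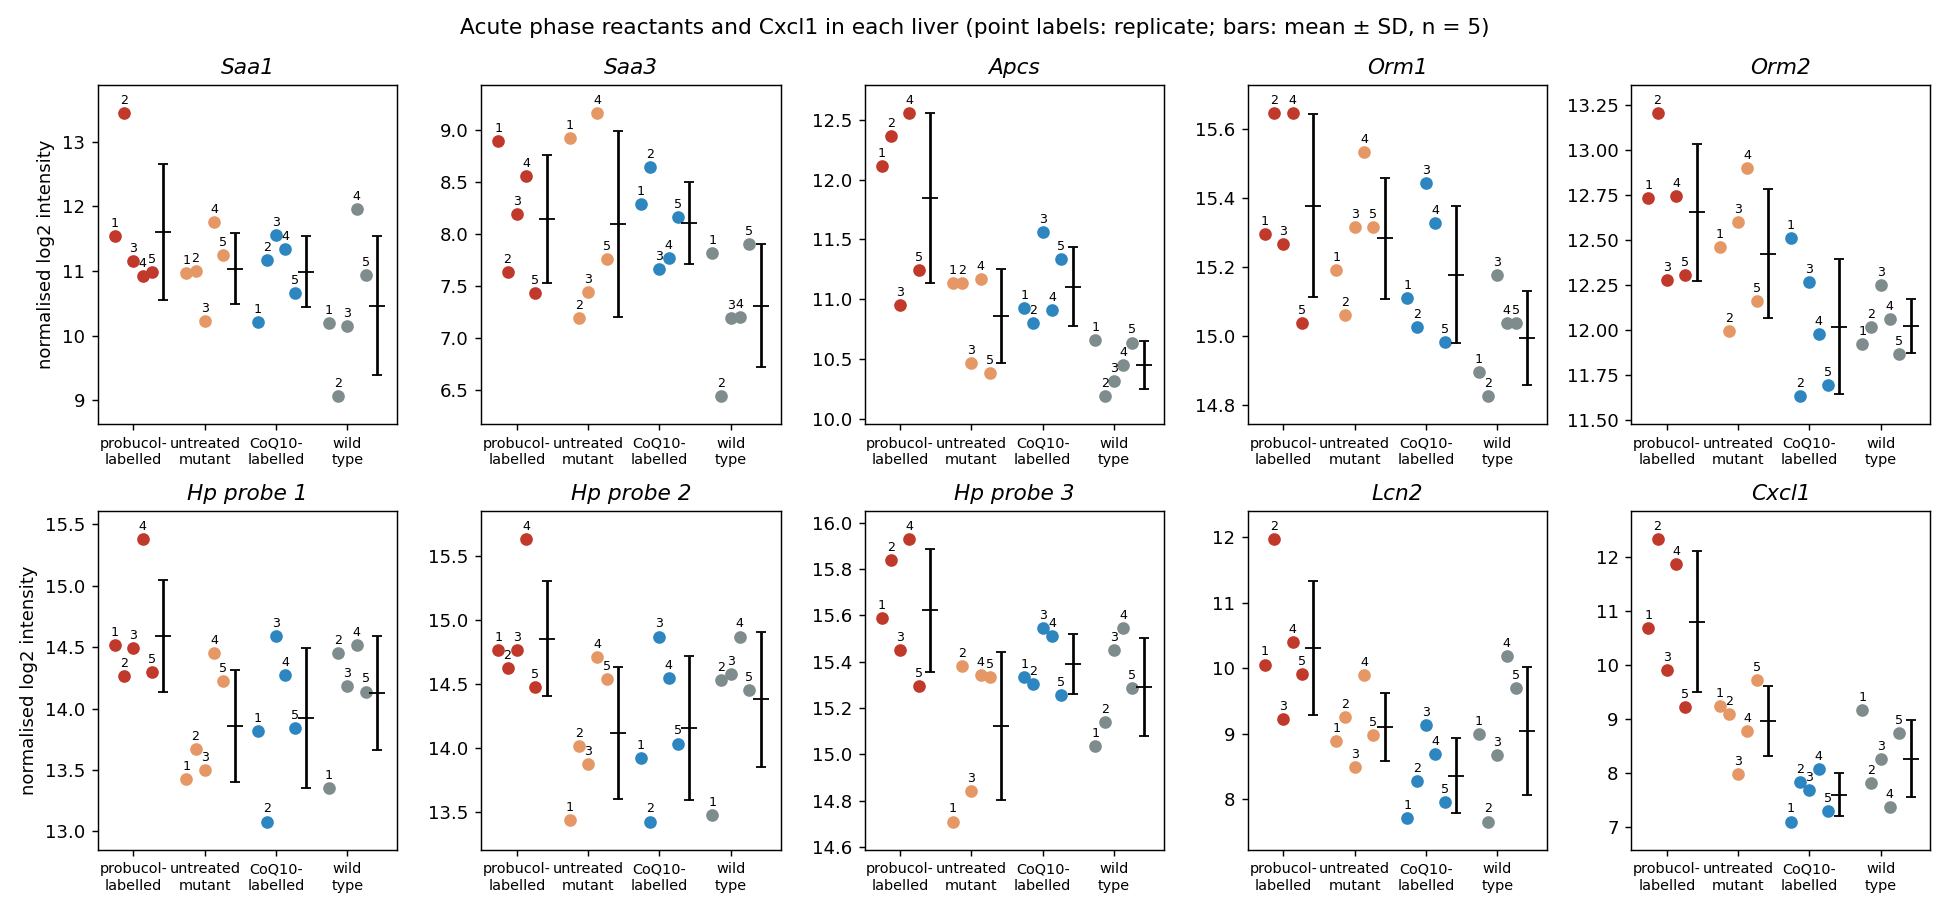
Normalised log2 intensity of the 10 detected probes of the acute phase reactants and Cxcl1, one point per liver with its replicate number, in probucol-labelled, untreated and CoQ10-labelled mutants and wild type; bars give the mean and SD of 5 livers, and each panel has its own scale. Liver 2 of the probucol-labelled group lies at 13.44 for Saa1 and 11.97 for Lcn2, and livers 1, 2 and 4 of that group lie above every other liver for Apcs and Cxcl1.

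Between untreated mutants and wild type 0 of 10 member probes were called by limma at an adjusted p under 0.05 (Benjamini-Hochberg over all 15096 probes), beside 0.119% of all probes. Between CoQ10-labelled mutants and wild type 0 of 10 were called, beside 0.437% of all probes, and between CoQ10-labelled and untreated mutants 0 of 10, beside 0.119%. At an unadjusted p under 0.05 the counts were 2, 2 and 1 of 10 in these 3 comparisons, beside 5.5%, 13.3% and 9.39% of all probes. Groups that did not overlap were found at 0, 1 and 0 of 10 member probes in the same order, beside 1.56%, 4.61% and 1.68% of the array. With the 2 groups taken from the array names instead, 2 of 10 were called for untreated mutants against wild type and 1 of 10 for CoQ10-labelled against untreated mutants, where the livers then called untreated are those that the members were chosen from. Untreated livers belonged to the contrast from which the genes were proposed, and wild-type and untreated livers each enter 2 of the 3 comparisons. All log2 differences below carry the standard error of the limma fit. That fit has 1 estimate of the spread of each probe over all 4 groups. The probucol-labelled livers thus also enter the standard errors and p-values of these 3 comparisons, and the counts of 0 called are not free of the choice of members. For Cxcl1 their SD was 1.31, against 0.65 in untreated and 0.40 in CoQ10-labelled mutants, which widens its standard error. With only the 2 compared groups in the fit 0 of 10 were called as well.

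**Figure D2:**
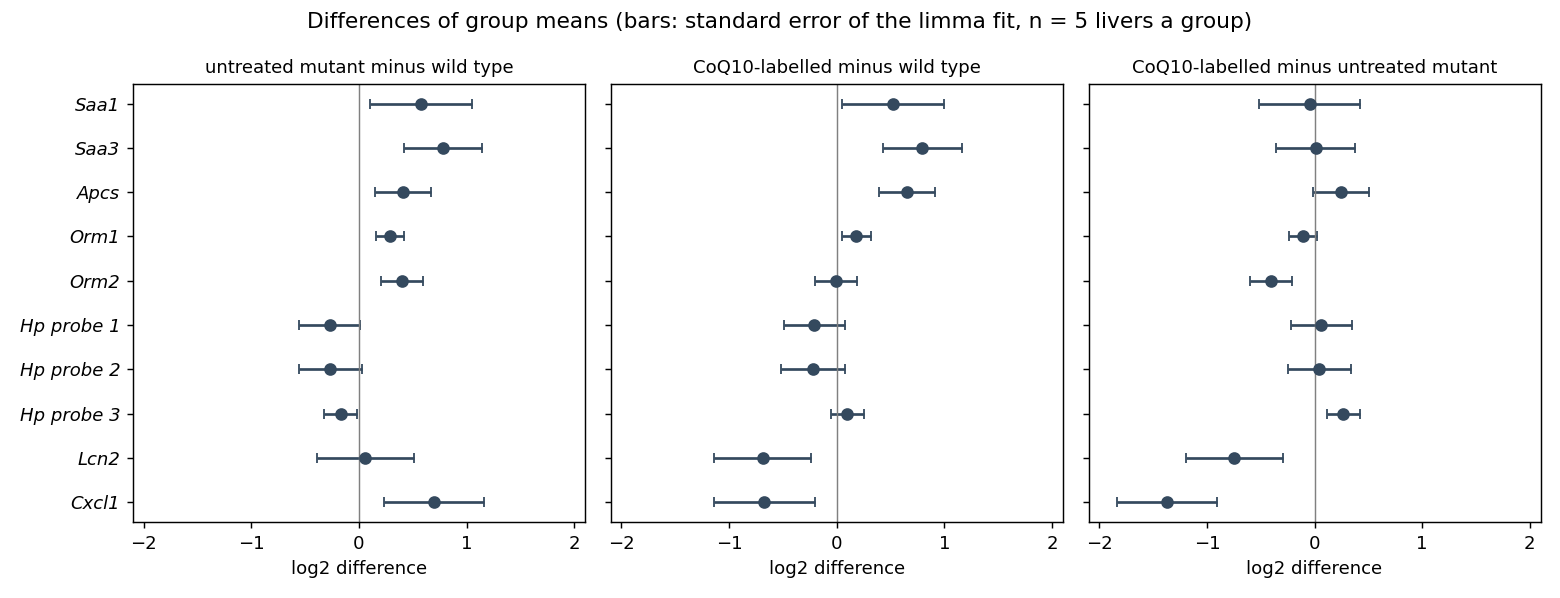
Log2 difference of group means for each detected probe, with the standard error of the limma fit over 5 livers a group, for untreated mutants minus wild type, CoQ10-labelled mutants minus wild type and CoQ10-labelled minus untreated mutants. Cxcl1 lies farthest from 0, at -1.37 in CoQ10-labelled against untreated mutants, and none of the 10 probes was called in any panel.

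Saa1, 1 of the 2 main serum amyloid A genes of mouse liver, was set apart by 1 liver. Its probe ILMN_2768154 read, as deposited intensity in livers 1 to 5, 2311, 12181, 2713, 2347 and 2510 in probucol-labelled mutants and 1694, 2267, 1483, 4833 and 2820 in untreated mutants. In CoQ10-labelled mutants it read 1187, 2492, 3589, 3259 and 1336, and in wild type 1062, 696, 1424, 4863 and 1994. Probucol-labelled liver 2 had by far the highest reading, and the remaining livers of all 4 groups overlapped. On the normalised log2 scale liver 2 stood 5.18-fold above the median of the other 4 livers of its group, and wild-type liver 4 stood 3.46-fold above its own. Group means were 11.61 ± 1.05 in probucol-labelled, 11.04 ± 0.55 in untreated and 10.99 ± 0.55 in CoQ10-labelled mutants, and 10.47 ± 1.07 in wild type (SD, n = 5 each). The difference from wild type was 0.57 ± 0.47 for untreated mutants (limma, adjusted p = 0.999) and 0.53 ± 0.47 for CoQ10-labelled mutants (limma, adjusted p = 0.700). CoQ10-labelled and untreated mutants differed by -0.05 ± 0.47 (limma, adjusted p = 0.988).

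A second Saa1 probe, ILMN_2826869, and the probe of Saa2, the other main liver gene of the family, were detected in 2 of 20 livers each, probucol-labelled liver 2 and untreated liver 4. The second Saa1 probe read 469 in probucol-labelled liver 2 and 262 in untreated liver 4, against 162 to 240 in the other 18 livers. The Saa2 probe read 432 and 263 in the same livers, against 166 to 254 in the other 18. Both dim probes thus picked out the liver in which the bright Saa1 probe was highest. As Saa1 and Saa2 are near-identical copies, a probe may read both, and how these probes share transcripts was not tested. The 2 dim probes did not pass the filter and were not tested for group differences.

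Saa3, which in the mouse is also made by macrophages and fat tissue, followed the livers of Saa1 only in part. Its log2 level was 8.89, 7.63, 8.19, 8.56 and 7.43 in probucol-labelled livers 1 to 5 and 8.92, 7.19, 7.44, 9.16 and 7.76 in untreated mutants. In CoQ10-labelled mutants it was 8.28, 8.64, 7.66, 7.77 and 8.16, and in wild type 7.82, 6.44, 7.19, 7.20 and 7.90. Probucol-labelled liver 2, the highest for Saa1, was below its group's mean here, and untreated livers 1 and 4 were the highest of all 20. Untreated liver 4 was the highest of its group for Saa1 too. The Pearson correlation of Saa1 and Saa3 was 0.30 over the 20 livers and 0.45 over the 15 not labelled probucol. The difference from wild type was 0.78 ± 0.37 in untreated mutants (unadjusted p = 0.0445, limma adjusted p = 0.880) and 0.79 ± 0.37 in CoQ10-labelled mutants (limma, adjusted p = 0.345), and neither was called. With untreated livers 1 and 4 set aside the difference of untreated mutants from wild type was 0.15. That fall follows from setting aside the highest livers. CoQ10-labelled and untreated mutants differed by 0.01 ± 0.37 (limma, adjusted p = 0.994).

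Apcs encodes serum amyloid P, the pentraxin that serves in the mouse as the inducible plasma pentraxin. Its log2 level was 12.11, 12.37, 10.95, 12.55 and 11.25 in probucol-labelled livers 1 to 5, 11.13, 11.14, 10.47, 11.17 and 10.39 in untreated mutants, 10.92, 10.80, 11.57, 10.91 and 11.34 in CoQ10-labelled mutants and 10.66, 10.19, 10.32, 10.45 and 10.64 in wild type. All 5 probucol-labelled and all 5 CoQ10-labelled livers lay above all 5 wild-type livers, and untreated livers 3 and 5 lay within the wild-type range. Such a separation from wild type was found at 1 of 10 member probes for CoQ10-labelled mutants (4.61% of the array) and at 3 of 10 for probucol-labelled mutants (3.13% of the array). The difference of CoQ10-labelled mutants from wild type was 0.65 ± 0.26, or 1.57-fold (unadjusted p = 0.0196, limma adjusted p = 0.256), and was not called. Untreated mutants differed from wild type by 0.41 ± 0.26 (limma, adjusted p = 0.984), and CoQ10-labelled from untreated mutants by 0.25 ± 0.26 (limma, adjusted p = 0.847).

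The orosomucoid genes Orm1 and Orm2 encode alpha-1-acid glycoproteins. Orm1 spread little between livers, and Orm2 ran from 11.63 to 13.20. The Orm1 probe is bright, at up to 85.4% of the highest intensity on its array (untreated liver 4), and whether brightness limits it was not tested. Orm1 ran from 15.04 to 15.65 (median 15.29) in probucol-labelled, 15.06 to 15.53 (15.32) in untreated and 14.98 to 15.44 (15.11) in CoQ10-labelled mutants and from 14.83 to 15.18 (15.04) in wild type. Orm2 was 12.73, 13.20, 12.28, 12.74 and 12.30 in probucol-labelled livers, 12.46, 11.99, 12.60, 12.90 and 12.16 in untreated, 12.51, 11.63, 12.27, 11.98 and 11.69 in CoQ10-labelled and 11.92, 12.02, 12.25, 12.06 and 11.86 in wild-type livers. Wild-type livers spanned the narrowest range for both genes, and for Orm2 all 5 probucol-labelled livers lay above them. Untreated mutants differed from wild type by 0.29 ± 0.13 for Orm1 (unadjusted p = 0.0417, limma adjusted p = 0.877) and by 0.40 ± 0.20 for Orm2 (limma, adjusted p = 0.919). CoQ10-labelled mutants differed from wild type by 0.18 ± 0.13 for Orm1 (limma, adjusted p = 0.612) and by -0.01 ± 0.20 for Orm2 (limma, adjusted p = 0.996). Against untreated mutants the Orm2 difference of CoQ10-labelled mutants was -0.41 ± 0.20 (limma, adjusted p = 0.540) and the Orm1 difference -0.11 ± 0.13 (limma, adjusted p = 0.888).

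Haptoglobin was read by 3 probes, ILMN_2668509, ILMN_2668510 and ILMN_2944824, numbered 1 to 3 in the plots. At the first the log2 level was 14.52, 14.27, 14.49, 15.38 and 14.29 in probucol-labelled livers and 13.43, 13.67, 13.50, 14.45 and 14.23 in untreated livers. It was 13.82, 13.08, 14.59, 14.27 and 13.84 in CoQ10-labelled livers and 13.35, 14.45, 14.18, 14.52 and 14.14 in wild type. Probucol-labelled liver 4 was the highest of the 20, and its group's other 4 livers lay inside the range of the remaining groups. Untreated mutants had lower means than wild type at all 3 probes, with differences of -0.27 ± 0.28, -0.26 ± 0.29 and -0.17 ± 0.15 (limma, adjusted p = 0.999 at each), while the other 7 member probes had higher means, as 49.5% of all probes were. CoQ10-labelled mutants differed from wild type by -0.21 ± 0.28, -0.22 ± 0.29 and 0.10 ± 0.15, with limma adjusted p of 0.819 to 0.856, and from untreated mutants by 0.06 ± 0.28, 0.04 ± 0.29 and 0.27 ± 0.15, with limma adjusted p of 0.627 to 0.985. The third probe is bright, at 64360 and 66569 in probucol-labelled livers 2 and 4, or 88.5% and 92.0% of the highest intensity on those arrays, and its group differences were smaller than those of the first probe in the comparisons with probucol-labelled livers. Whether brightness limits it was not tested.

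Lcn2 was highest in the same liver as Saa1. Its intensity was 928, 4596, 851, 1664 and 1305 in probucol-labelled livers 1 to 5, 523, 852, 616, 1404 and 744 in untreated, 368, 523, 780, 664 and 358 in CoQ10-labelled and 562, 380, 653, 1622 and 963 in wild-type livers. After normalisation all 5 probucol-labelled livers, at 9.23 to 11.97, lay above all 5 CoQ10-labelled livers, at 7.71 to 9.14, a separation found at 2 of 10 member probes and at 1.52% of the array. Probucol-labelled liver 2 stood 3.97-fold above the median of the other 4, and wild-type liver 4 stood 2.57-fold above its own. The mean was 10.31 ± 1.02 in probucol-labelled, 9.10 ± 0.52 in untreated and 8.36 ± 0.57 in CoQ10-labelled mutants, and 9.04 ± 0.97 in wild type (SD, n = 5 each). Untreated mutants differed from wild type by 0.06 ± 0.45 (limma, adjusted p = 0.999) and CoQ10-labelled mutants by -0.69 ± 0.45 (limma, adjusted p = 0.562). CoQ10-labelled and untreated mutants differed by -0.74 ± 0.45 (limma, adjusted p = 0.659).

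Cxcl1 ranged more widely over the 20 livers than any other detected member, from 7.10 to 12.34. Its intensity was 1348, 5916, 1236, 4427 and 887 in probucol-labelled livers 1 to 5 and 613, 778, 503, 752 and 1122 in untreated livers. It was 308, 443, 396, 497 and 289 in CoQ10-labelled and 610, 401, 542, 391 and 583 in wild-type livers. Livers 2 and 4 of the probucol-labelled group stood far above the rest, and the CoQ10-labelled livers held the 2 lowest readings. On the log2 scale the mean was 10.81 ± 1.31 in probucol-labelled (range 9.22 to 12.34), 8.96 ± 0.65 in untreated (7.99 to 9.73) and 7.59 ± 0.40 in CoQ10-labelled mutants (7.10 to 8.07), and 8.27 ± 0.71 in wild type (7.37 to 9.16; SD, n = 5 each). Wild type thus lay between untreated and CoQ10-labelled mutants, and neighbours in the order of the means overlapped.

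Against untreated mutants Cxcl1 was 2.59-fold lower in CoQ10-labelled mutants (-1.37 ± 0.47, unadjusted p = 0.00809, limma adjusted p = 0.311), which was not called, and untreated liver 3 lay within the CoQ10-labelled range. Within each of the 4 numbers carried in the array names, with 1 or 2 livers a group, this difference was -2.14, -0.72, -1.09 and -2.05. Untreated mutants differed from wild type by 0.70 ± 0.47 (limma, adjusted p = 0.990), and CoQ10-labelled mutants from wild type by -0.67 ± 0.47 (limma, adjusted p = 0.591).

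The contrast from which the members were proposed sets probucol-labelled against untreated mutants, where the groups were apart at 0 of 10 member probes and at 0.908% of the array. All 10 had the higher mean in probucol-labelled livers, as 50.3% of all probes had, with differences of 1.84 ± 0.47 for Cxcl1, 1.21 ± 0.45 for Lcn2, 0.99 ± 0.26 for Apcs, 0.57 ± 0.47 for Saa1 and 0.23 ± 0.20 for Orm2. Haptoglobin differed by 0.73 ± 0.28, 0.74 ± 0.29 and 0.50 ± 0.15 at its 3 probes, Orm1 by 0.09 ± 0.13 and Saa3 by 0.05 ± 0.37. With 1 liver left out in turn the Saa3 difference ran from -0.18 (without untreated liver 2) to 0.31 (without untreated liver 4), so its sign was not settled. Livers 1, 2 and 4 of the probucol-labelled group were singled out by their values, as its highest for Cxcl1 and Apcs. Liver 2 was its highest for Saa1. Setting these livers aside therefore lowers those differences, and the values left describe that choice alone. With livers 1, 2 and 4 set aside, 2 probucol-labelled livers remained, 7 of 10 probes had the higher mean there, and the differences were 0.60 for Cxcl1, 0.46 for Lcn2, 0.24 for Apcs, 0.03 for Saa1, -0.28 for Saa3 and -0.13 for both Orm1 and Orm2. Haptoglobin kept 0.53, 0.50 and 0.25. Without liver 2 alone the Saa1 difference was 0.11, the Orm2 difference 0.09 and the Lcn2 difference 0.79. The Saa1 difference was 0.58 without liver 1 alone and 0.74 without liver 4 alone.

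Within the 4 array numbers the difference of probucol-labelled from untreated livers was 1.45, 3.80, 2.11 and -0.51 for Cxcl1 and 0.98, 1.56, 0.59 and 0.86 for Apcs, each with 1 or 2 livers a group. For Saa1 it was 0.57, 2.83, -0.72 and -0.27. Among these genes only Apcs had the same sign within all 4 numbers. The members were proposed from this contrast, so the signs describe that choice and support nothing further. Against wild type the probucol-labelled livers had means higher by 2.54 ± 0.47 for Cxcl1, 1.39 ± 0.26 for Apcs, 1.27 ± 0.45 for Lcn2 and 1.14 ± 0.47 for Saa1. Against CoQ10-labelled mutants they were higher by 3.21 ± 0.47 for Cxcl1, or 9.27-fold, and by 1.95 ± 0.45 for Lcn2. For Cxcl1 neither of these 2 comparisons had overlapping groups.

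**Figure D3:**
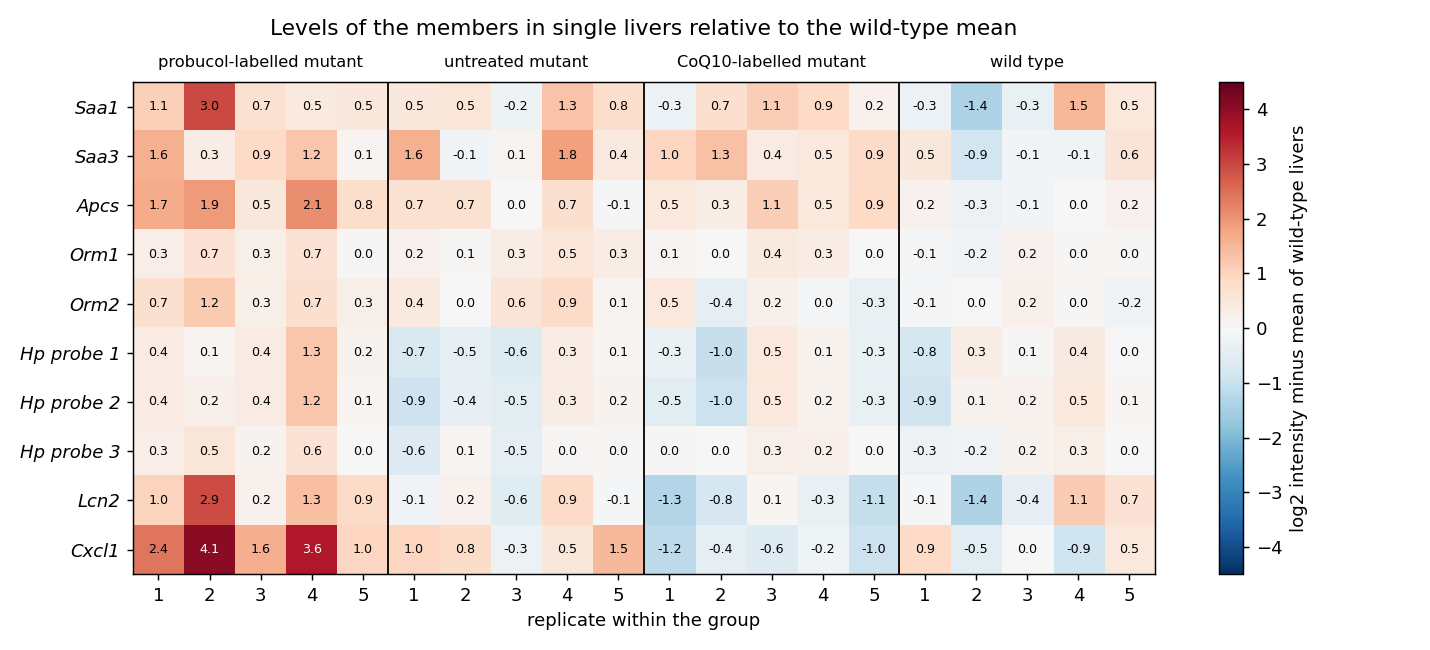
Log2 level of each detected probe in each of the 20 livers minus the mean of the 5 wild-type livers, in columns by group and replicate. The darkest cells are Cxcl1 in probucol-labelled livers 2 (4.07) and 4 (3.62) and Saa1 and Lcn2 in liver 2 (2.97 and 2.92), while livers 3 and 5 of that group are paler.

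Liver by liver, the members did not move as 1 block. Of the 10 probes, probucol-labelled livers 1 to 5 lay above every wild-type liver at 6, 7, 5, 9 and 3, untreated livers at 5, 1, 2, 4 and 2, and CoQ10-labelled livers at 3, 2, 4, 2 and 2. Over all probes the share above every wild-type liver was 18.2% to 23% in probucol-labelled, 13.7% to 24.3% in untreated and 18.4% to 25.6% in CoQ10-labelled livers. Below every wild-type liver lay 0 of 10 member probes in each probucol-labelled liver, 2, 0, 1, 0 and 0 in untreated livers 1 to 5 and 1, 3, 0, 0 and 2 in CoQ10-labelled livers. The share of all probes below every wild-type liver was 17.8% to 26.2% in probucol-labelled, 14.3% to 25.9% in untreated and 18.8% to 23.8% in CoQ10-labelled livers. Within the probucol-labelled group liver 2 was highest for Saa1, Orm2, Lcn2 and Cxcl1, liver 4 for Apcs, Orm1 and all 3 haptoglobin probes, and liver 1 for Saa3. Liver 4 had Cxcl1 and Apcs as high as liver 2 or nearly so, yet its Saa1 level of 10.92 was the lowest of its group. The label records give probucol-labelled livers 1 to 5 a glomerular nephritis score of 3, 0, 0, 1 and 0. Their urine albumin was 1.36, 0.84, 1.48, 1.86 and 1.60 mg per 24 h. Cxcl1 levels were 10.68, 12.34, 9.90, 11.88 and 9.22 in the same order. Whether the score or the albumin bears on these levels was not tested.

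Saa1 and Lcn2 ran together across livers, with a Pearson correlation of 0.80 over the 20 livers, 0.92 after each group's mean was taken off and 0.73 over the 15 livers not labelled probucol. By array number 1 to 4, mean deviations from the group means were alike. They were -0.51, 0.17, 0.33 and 0.02 for Saa1 and -0.51, 0.15, 0.34 and 0.01 for Lcn2. The part of the array number in this correlation was not tested. Orm1 and Orm2 gave 0.77 over 20 livers and 0.68 over 15. Apcs and Cxcl1 gave 0.70 over 20 but -0.10 over the 15, and Lcn2 and Cxcl1 0.76 and 0.40, so both correlations were lower without the probucol-labelled livers. Saa3 and haptoglobin gave -0.05, -0.08 and 0.02 for the 3 probes over 20 livers, and -0.35, -0.38 and -0.22 over the 15. The 2 dimmer haptoglobin probes correlated at 0.98 with each other. All these values describe livers that share arrays, normalisation and, in part, group.

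**Figure D4:**
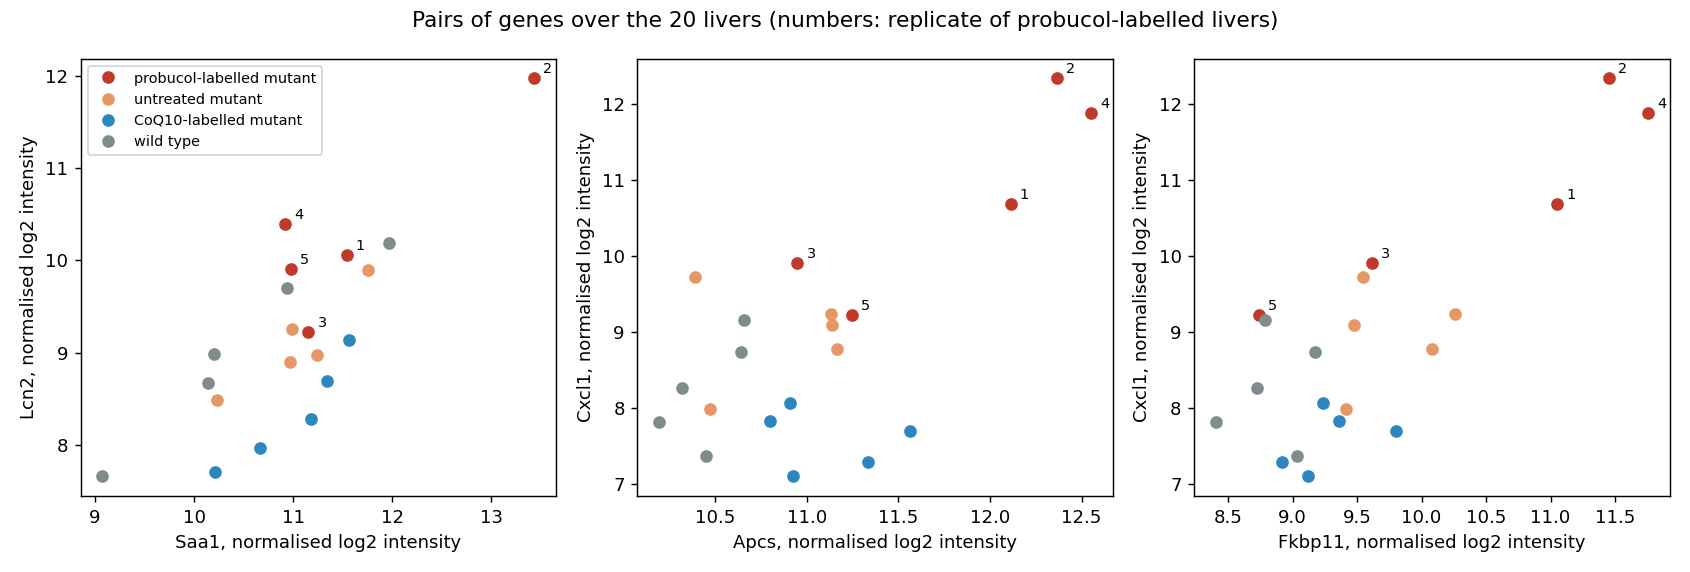
Normalised log2 intensity of Lcn2 against Saa1, Cxcl1 against Apcs and Cxcl1 against Fkbp11 over the 20 livers, coloured by group, with replicate numbers on the probucol-labelled livers. Saa1 and Lcn2 form 1 band through all groups (r = 0.80), whereas in the other 2 panels probucol-labelled livers 1, 2 and 4 lie apart at the upper right.

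The number in the array name, 1 to 4, was carried by 5 arrays each and spread over all 4 groups, and the labels do not say what it stands for. As a term of the model, added after seeing the data, it was called at 7.27% of all probes and at 0 of the 10 member probes (limma F test, 2 of 10 at an unadjusted p under 0.05, beside 27% of all probes). The lowest adjusted p were 0.0635 and 0.0601, at the first 2 haptoglobin probes, whose livers of number 3 lay 0.47 and 0.50 above their group means. For the other 8 probes the limma adjusted p was 0.309 or more. Number 3 was carried by probucol-labelled livers 3 and 4, untreated liver 4, CoQ10-labelled liver 3 and wild-type liver 4. Untreated liver 4 was the highest of its group at 8 of 10 probes, CoQ10-labelled liver 3 at 7, probucol-labelled liver 4 at 5, wild-type liver 4 at 5 and probucol-labelled liver 3 at 0. The part of the array number in these levels was not tested beyond this term and the blocked fits.

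Other proteins of the acute phase gave no called difference either. Of 25 further proteins that rise in inflammation 19 were detected, and limma called 0 of 19 in either direction in each of the 6 comparisons. At an unadjusted p under 0.05 were 3, 1 and 2 of 19 in untreated mutants against wild type, CoQ10-labelled mutants against wild type and CoQ10-labelled against untreated mutants. Of all probes 5.5%, 13.3% and 9.39% were at that level in the same order. In the 3 comparisons with probucol-labelled livers limma called 0.0132% (against untreated mutants), 0.709% (against wild type) and 0.0464% (against CoQ10-labelled mutants) of all probes, and 5, 4 and 6 of the 19 were at an unadjusted p under 0.05 in the same order, beside 6.1%, 12.3% and 9.95% of all probes. The median difference of the 19 was, in the first 3 comparisons, -0.02, -0.09 and 0.01, beside -0.0022, -0.0052 and 0.0039 for all probes. Between probucol-labelled and untreated mutants 13 of 19 had the higher mean, with a median of 0.15. Saa4, the constitutive serum amyloid A that lies between Saa3 and Saa1, averaged 12.18 in probucol-labelled, 12.23 in untreated and 11.84 in CoQ10-labelled mutants and 12.21 in wild type.

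The genes of that list with the smallest p in untreated mutants against wild type were Mt2, Il1rn, Mt1 and Cp. Mt2 and Mt1 encode metallothioneins, which bind zinc and copper. Mt2 had a mean of 8.92 in untreated mutants against 6.88 in wild type (2.04 ± 0.51, limma adjusted p = 0.183), and Mt1 differed by 0.69 ± 0.25 (limma, adjusted p = 0.614). Il1rn, which encodes the interleukin 1 receptor antagonist, differed by -0.63 ± 0.22 (limma, adjusted p = 0.567) and ceruloplasmin, Cp, by -0.30 ± 0.16 (limma, adjusted p = 0.938). Against untreated mutants the Mt2 difference of CoQ10-labelled mutants was -2.19 ± 0.51 (limma, adjusted p = 0.0906), and it was not called in any of the 6 comparisons.

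Negative acute phase proteins, the carriers whose synthesis falls in inflammation, were detected at 12 of 12. Limma called 0 of 12 in untreated mutants against wild type, CoQ10-labelled mutants against wild type and CoQ10-labelled against untreated mutants. At an unadjusted p under 0.05 were 1, 2 and 2 of 12, beside 5.5%, 13.3% and 9.39% of all probes, and the median differences were -0.01, -0.04 and -0.0003. Serpina6, the corticosteroid-binding globulin, differed by -0.45 ± 0.19 in untreated mutants against wild type (limma, adjusted p = 0.802). Igf1 differed by 0.22 ± 0.14, the transcription factor Hnf4a by -0.15 ± 0.16 and transferrin, Trf, by -0.08 ± 0.09, with limma adjusted p of 0.984 to 0.999. In CoQ10-labelled mutants against wild type Hnf4a differed by -0.58 ± 0.16 (limma, adjusted p = 0.109).

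Of 33 cytokines, receptors and signalling genes of the response 24 were detected, with 0 of 24 called by limma in each of these 3 comparisons. At an unadjusted p under 0.05 were 1, 7 and 5 of 24, beside 5.5%, 13.3% and 9.39% of all probes. Their medians were 0.0030, -0.13 and -0.10, beside -0.0022, -0.0052 and 0.0039 for all probes. In untreated mutants against wild type the kinase Jak2 differed by -0.41 ± 0.17, the NF-kappaB regulators Nfkbiz and Nfkbia by -0.52 ± 0.26 and 0.35 ± 0.22 and the immediate early gene Fos by 1.10 ± 0.61, with limma adjusted p of 0.805 to 0.984. Of 20 other chemokines 10 were detected, with 0 of 10 called by limma and medians of 0.21, 0.25 and 0.19. At an unadjusted p under 0.05 were 1, 4 and 3 of 10, beside the same shares of all probes. Cxcl14 differed by -0.33 ± 0.14, Ccl4 by 0.44 ± 0.24, Cxcl12, a chemokine of stromal cells, by -0.21 ± 0.14 and the interferon-induced Cxcl10 by 0.20 ± 0.14 in untreated mutants against wild type, with limma adjusted p of 0.823 to 0.996. In CoQ10-labelled against untreated mutants, where Cxcl1 differed by -1.37, 8 of these 10 chemokines had the higher mean, beside 50.8% of all probes.

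Of the 11 markers of neutrophils, the cells that Cxcl1 attracts, S100a8 was detected in 19 and S100a9 in 15 of 20 livers. Ngp, Camp, Ltf, Mpo, Cxcr2, Mmp8 and Mmp9 were detected in 0 of 20, Elane in 4 and Retnlg in 2. The summed level of the 11 was 636 to 1700 (median 1047) in probucol-labelled, 615 to 1086 (903) in untreated and 704 to 1076 (815) in CoQ10-labelled mutants and 511 to 957 (608) in wild type. S100a8 was 8.05, 8.51, 9.08, 9.78 and 7.12 in probucol-labelled livers 1 to 5. S100a9 was 6.79, 7.73, 7.56, 8.48 and 6.10 in the same livers. Both were highest in liver 4, and liver 2, with the highest Cxcl1, lay below liver 3 for S100a8 and above it for S100a9. In probucol-labelled livers against wild type the difference was 1.37 ± 0.45 for S100a8 (limma, adjusted p = 0.181) and 1.01 ± 0.46 for S100a9 (limma, adjusted p = 0.368). Neither was called, and 2 of 2 were at an unadjusted p under 0.05, beside 12.3% of all probes. Both also had the higher mean in untreated (median difference 0.70) and CoQ10-labelled mutants (0.78) than in wild type, with 0 and 1 of 2 at that level. Against untreated and CoQ10-labelled mutants the median difference of probucol-labelled livers was 0.49 and 0.41, with 0 of 2 in each. Kupffer cell and macrophage markers, 10 of 11 detected, summed to 12882 to 14259 in probucol-labelled, 11903 to 14878 in untreated and 13190 to 17394 in CoQ10-labelled mutants and 10389 to 12315 in wild type. Of these, Folr2 (1.04 ± 0.15, limma adjusted p = 0.00133) and C1qa (0.88 ± 0.17, limma adjusted p = 0.0189) were higher in CoQ10-labelled mutants than in wild type, 1 of the 2 comparisons in which the Apcs groups did not overlap. Of the sinusoidal endothelial markers 5 of 6 were detected, and in probucol-labelled livers against wild type 3 had the higher and 2 the lower mean, with a median of 0.03. Among them Lyve1 was higher (0.86 ± 0.19, limma adjusted p = 0.0420) in probucol-labelled livers than in wild type. Of the cholangiocyte markers 2 of 5 were detected. Both had the lower mean than wild type in probucol-labelled (median -1.05), untreated (-0.99) and CoQ10-labelled mutants (-0.71). Of these, Krt23 was called lower in probucol-labelled livers than in wild type (-1.94 ± 0.32, limma adjusted p = 0.00678). Neither marker was called in untreated or CoQ10-labelled mutants against wild type. The part of these cells in the levels of the members was not tested.

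The genes most like the members in their pattern over the 20 livers, by Pearson correlation with the mean standardised level of the 8 detected members, were Fkbp11 (0.92), Tceal9 (0.89), Dnaic1 (0.85), Prtn3 (0.83), A2ml1 (0.83), Cyb561 (0.83), Fabp5 (0.83) and Hsbp1l1 (0.82). Fkbp11, an endoplasmic reticulum peptidyl-prolyl isomerase, was 11.05, 11.45, 9.61, 11.76 and 8.74 in probucol-labelled livers 1 to 5, against 9.42 to 10.26 in untreated and 8.92 to 9.80 in CoQ10-labelled mutants and 8.40 to 9.17 in wild type. Prtn3, a serine protease of neutrophil granules, was 8.10, 10.91, 6.46, 9.93 and 6.40 in probucol-labelled livers, against 6.11 to 6.80 in the other 15. Of the neutrophil markers above, S100a8 and S100a9 were detected in 19 and 15 of the 20 livers, and Ngp, Camp, Ltf and Mpo in 0. Elane was detected in 4, all of them CoQ10-labelled or wild type. Whether the Prtn3 level follows neutrophils was not tested. Fabp5, a fatty acid-binding protein, was 9.31, 9.89, 6.57, 10.21 and 5.91 in probucol-labelled livers, against 5.36 to 8.34 in the other 15. For all 3 genes probucol-labelled livers 1, 2 and 4 were the 3 highest of the 20, and livers 3 and 5 were not. The genes were picked by likeness to members that were themselves chosen for such livers, so this pattern follows from the choice and supports nothing further. At the other end were Ccny (-0.87), Exd2 (-0.86), Mme (-0.85), which encodes neprilysin, and the stellate cell gene Reln (-0.84).

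For all 8 genes the correlation was lower without the probucol-labelled livers, as a ranking over livers that include them favours. Over the 15 other livers the correlation was 0.82 for Fkbp11 and 0.66 for Tceal9, and it was 0.37 for Dnaic1, 0.25 for Prtn3 and 0.34 for Cyb561. The 8 genes of highest correlation over those 15 livers were Bace2, 4933434E20Rik, Prss8, Pfn1, Fkbp11, Dtymk, 3110040N11Rik and Sri, of which 1, Fkbp11, was among the 8 over all livers. Of the 4 lowest genes, Ccny had -0.88 over the 15 livers, Mme -0.71, Exd2 -0.63 and Reln -0.38.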

How the data were processed

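Liver RNA was read on Illumina Mouse WG-6 v2 arrays. The authors deposited a table of linear bead intensity per probe and array, which from its values was neither background-subtracted nor normalised, and beside each intensity, per the file headers, a detection value. This detection fraction, headed as a p in the deposited table, rises with intensity (rank correlation 0.99 to 0.996), so 1 minus it was used as the detection p. A deposited log2 table (column medians 7.81 to 7.82), with its normalisation method not given in the sources used here, served as an alternative.

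With limma 3.58.1 (R 4.3.3) the background was removed by normexp, its parameters estimated through the detection p. An offset of 16 was added before quantile normalisation and the log2 step. One limma model with 4 group means was fitted to the 15096 kept probes (detection p under 0.05 in at least 5 arrays) of all 20 arrays and tested on simulated data. Differences are the first-named group minus the second, and p-values were adjusted by the Benjamini-Hochberg method over all kept probes and called below 0.05. The number of arrays limits the precision.

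Symbols came from the platform annotation (34885 probes with 1 symbol, 18 with several, 10378 with none). The members, lists and tests were chosen with earlier results of these data known. Named were all members, from each list the 4 genes of smallest p in untreated mutants against wild type plus every called gene, and the 8 highest and 4 lowest genes by correlation with the members. For each list gene the kept probe of highest mean was used. Promoters were read from the RefSeq table of GRCm38.p6.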

Additional observations from a re-analysis of the deposited data

Results flagged for a closer look

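The members were chosen because single probucol-labelled livers stood apart in them, so the distances of those livers describe that choice and support nothing further. In 48 sets of 5 livers (12 probes in 4 groups), 6 held a liver whose distance from its nearest neighbour passed Dixon's 95% limit for 5 samples (0.71 of the group's range), a limit that chance passes in about 1 of 20 sets. That rate is no yardstick for probucol-labelled livers, which supply 5 of the 6. Probes of 1 gene, and of Saa1 and Saa2, are not independent, so these 6 sets come from 3 livers. Probucol-labelled liver 2 stood apart for Saa1 at 13.44 (probe ILMN_2768154, nearest liver 11.54), for Saa1 at 7.69 (probe ILMN_2826869, nearest 5.76) and for Saa2 at 7.43 (nearest 5.81). Untreated liver 4 stood apart for Saa2 at 6.16 (nearest 5.42). Probucol-labelled liver 4 stood apart for haptoglobin at 15.38 (probe ILMN_2668509, nearest 14.52) and 15.63 (probe ILMN_2668510, nearest 14.77). Lcn2 and Cxcl1 of probucol-labelled liver 2 did not pass the limit.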

How the results depend on the processing

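With the groups taken from the array name prefix, the group called untreated holds the livers from which the members were proposed. Then 2 member probes (Cxcl1 and Apcs) were called for untreated mutants against wild type, 1 (Cxcl1) for CoQ10-labelled against untreated mutants, and 0 of 10 had the higher mean in the probucol group. Under every other alternative run 0 member probes were called in the 3 comparisons tested: no background correction, median scaling, the authors' log2 values, no filter, detection in all arrays, 2 groups in the fit, array number as a block, untreated livers 1 and 4 or probucol-labelled livers 1, 2 and 4 set aside, and each liver left out in turn. Probes with the higher mean in probucol-labelled than untreated livers numbered 9 with a block on array number and 7 of 10 with probucol-labelled livers 1, 2 and 4 set aside. The lowest limma adjusted p outside the prefix alternative was 0.0705 for Apcs in CoQ10-labelled mutants against wild type (2 groups in the fit), and 0.112 for Cxcl1 in CoQ10-labelled against untreated mutants (probucol-labelled livers 1, 2 and 4 set aside). Same-numbered replicates correlated above 0.1 in 17 of 30 pairs of groups (-0.32 to 0.46), with 6 of 6 pairs for numbers 1 and 4 each, 3 of 6 for number 2 and 1 of 6 for numbers 3 and 5 each. Replicate number and array number overlap in part. All livers of replicate number 1 carried array number 1, and all livers of replicate number 5 carried array number 4. The part of the array number in these correlations was not tested. As not every pair passed, the replicate numbers were not taken to pair the samples, and with the replicate number as a block 0 member probes were called in each comparison.

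Signs that turned belonged to differences not called, and the cause was not tested. For CoQ10-labelled against untreated mutants Saa3 was -0.0348 without background correction, -0.0297 under median scaling, -0.0505 with the authors' values, -0.0261 with a block on array number and -0.0359 by the prefix. By the prefix Apcs was -0.74 and haptoglobin -0.67, -0.69 and -0.23 in that comparison, and haptoglobin was 0.46, 0.47 and 0.33 in untreated mutants against wild type. With a block on array number the first 2 haptoglobin probes were -0.0192 and -0.0179 in CoQ10-labelled against untreated mutants. Orm2 in CoQ10-labelled mutants against wild type was 0.0242 under median scaling, 0.0395 with the authors' values and 0.0628 with the block. Lcn2 in untreated mutants against wild type was -0.0777 with the block and -0.14 with untreated livers 1 and 4 set aside, where Saa1 in CoQ10-labelled against untreated mutants was 0.17. With 1 liver left out, CoQ10-labelled against untreated mutants ran from -0.10 to 0.27 and -0.13 to 0.23 for the first 2 haptoglobin probes, -0.25 to 0.15 for Saa1 and -0.21 to 0.28 for Saa3. CoQ10-labelled mutants against wild type ran from -0.40 to 0.0017 for the first haptoglobin probe and -0.13 to 0.0895 for Orm2, Lcn2 in untreated mutants against wild type from -0.29 to 0.35, and Saa3 in probucol-labelled against untreated livers, given with no test, from -0.18 to 0.31. For that Saa3 difference the block on array number gave -0.0614.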
